A study of Danio rerio with 6 samples.

Results

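Retinoic acid, the active form of vitamin A, acts on cells by switching genes on and off. Retinol is oxidised to retinal, and *aldh1a2* (the enzyme also called Raldh2) oxidises retinal to retinoic acid. The cytochrome P450 enzymes of the *cyp26* family break retinoic acid down, CRABP2 proteins carry it within the cell, and retinoic acid receptors (RAR) bind it in the nucleus as pairs with retinoid X receptors (RXR). In the adult zebrafish fin, retinoic acid signalling is known to be needed for the blastema, the mass of dividing cells from which the lost part regrows.

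The genes described here are *aldh1a2*, the 3 *cyp26* genes, the receptors *raraa*, *rarab*, *rarga* and *rargb*, and the carriers *crabp2a* and *crabp2b*. They were chosen by gene symbol and make up 10 of the 32057 zebrafish gene IDs in the count table. A table of gene names gave 6 of them under their own symbols. It gave the other 4 only as 2 IDs under the shared symbol RARG and 2 under CRABP2, without saying which is the a and which the b copy, so these are called by their IDs.

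SMART-seq libraries were made from regenerating tail fins of larval zebrafish, 3 with rapamycin and 3 without, each from a pool of 50 fins. The rapamycin larvae (replicates 4 to 6, given the genotype mtor inhibition in the labels) received 1 µM rapamycin, a drug that blocks mTOR complex 1, from 2 days post fertilization (dpf). The control larvae (replicates 1 to 3, genotype WT) received the solvent DMSO. Fins of both groups were amputated at 3 dpf and collected at 24 hours post amputation (hpa). The comparison asks how blocking *mTOR* changes gene expression in the regrowing fin. Uninjured fins were not analysed here, so no level can be set against one before amputation.

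The libraries held 49055607 to 54162044 counts. After genes with too few counts were removed, 19778 were tested with edgeR, and 390 of these rose and 647 fell with rapamycin at an adjusted p under 0.05. Levels are given as CPM, which are counts divided by library depth. On the leading principal component of these levels on the log2 scale, the rapamycin libraries stood at 59.1 to 60.0, control replicates 2 and 3 at -77.4 and -92.4, and control replicate 1 at -8.84, between the rapamycin libraries and the other controls. The fin markers were abundant, with *krt4* of the epidermis at a mean of 34726 CPM in rapamycin and 31666 CPM in control fins, and *and1* of the fin fold at 30896 CPM in rapamycin and 39183 CPM in control fins. The 9 IDs of the retina and lens list all averaged under 1 CPM, as did *fabp10a*, *serpina1* and *ttr* of the liver list.

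The retinoic acid genes as a group showed more positive than negative values, and a synthetic and a degrading enzyme were the ones past the test. All 10 had enough counts to be tested, and 2 of them, *aldh1a2* and *cyp26c1*, rose in rapamycin fins, while 8 did not pass. Among all tested genes, 1.97% rose, 3.27% fell and 5.24% did either. The log2 fold change of rapamycin over control was above 0 for 8 of the 10 genes and below 0 for 2, with a median of 0.28, against 0.0014 over all tested genes. Of all 19778 tested genes 9902 lay above 0 and 9876 below. Of the 8 values above 0, that of *cyp26b1* was -0.041 without control replicate 2. That of the RARG gene ENSDARG00000054003 was -0.12 without control replicate 3, and that of *cyp26a1* had a 95% interval of -1.03 to 2.82. None of the 10 fell. At an unadjusted p under 0.05 from edgeR, 3 were higher and 0 lower, beside 10.1% and 13.3% of all tested genes. DESeq2 called 2 higher and 0 lower (5.06% and 7.79% of all genes), and limma-voom 2 higher and 0 lower (2.86% and 3.42%). Scaling by library size alone left 1 call (1.44% of all genes higher), and the paper's threshold of an unadjusted p under 0.05 with a log2 fold change of at least 1 left 0 (3.91% higher). Without control replicate 1, 3 of the 10 genes were called higher and 0 lower, beside 15.5% and 15.6% of all genes. Without control replicate 3 it was 1 of the 10 (1.62% of all genes higher), and without control replicate 2 or any 1 rapamycin library 0 (0.23% to 0.288% of all genes higher).

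Every rapamycin library lay above every control library for 4 of the 10 genes and below for 1. Over all tested genes such a separation was seen in 14.8% above and 15.9% below, or 30.7% in either direction. The 4 genes above were *aldh1a2*, *cyp26c1*, *rarab* and the CRABP2 gene ENSDARG00000030449, and the 1 below was the other CRABP2 gene, ENSDARG00000073978.

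**Figure D1:**
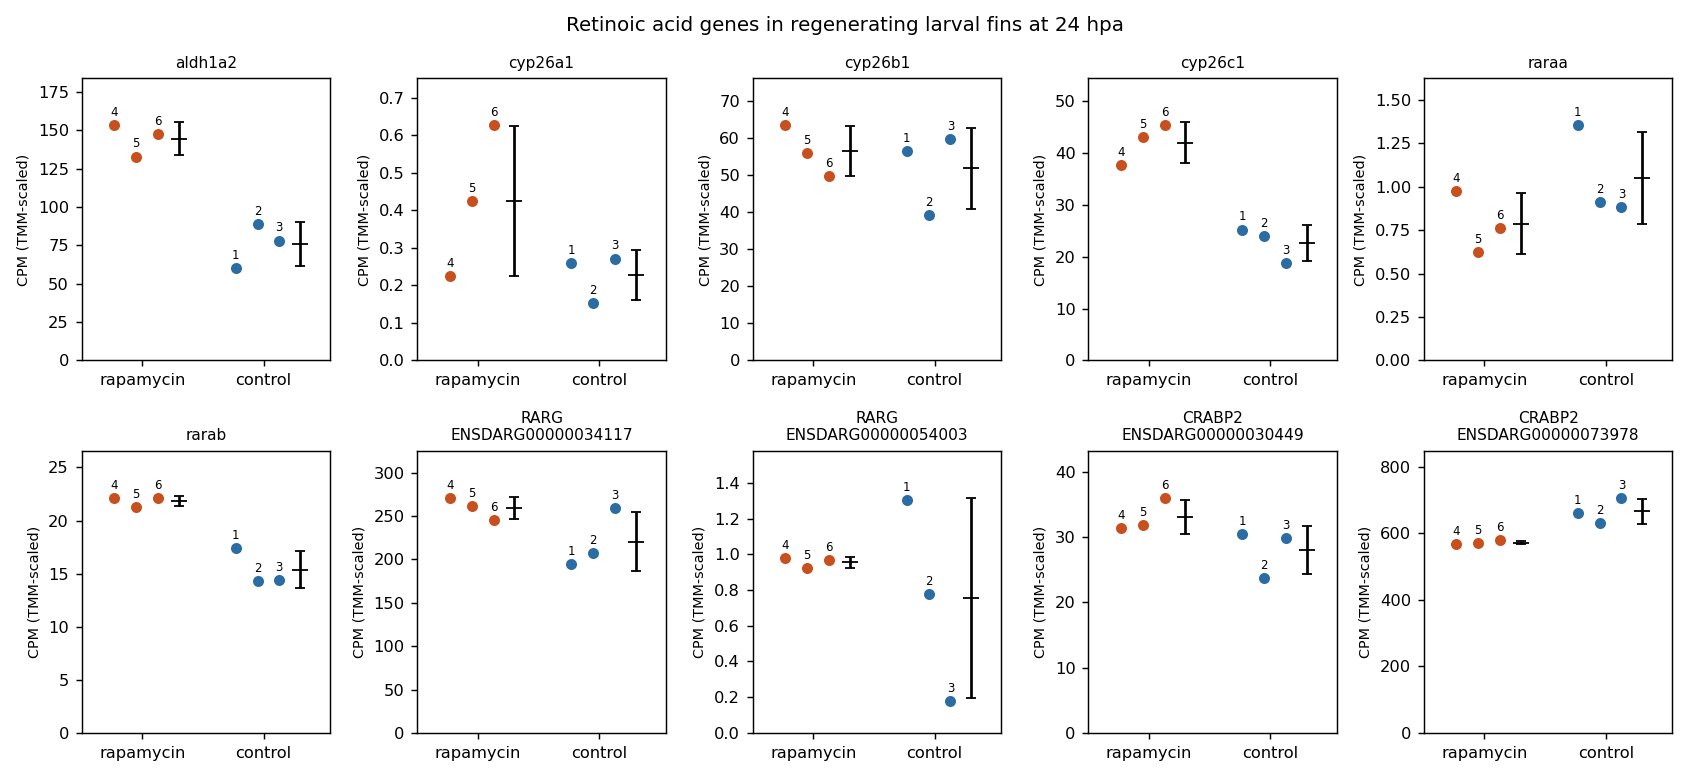
CPM (vertical axis, scaled by TMM, each panel from 0 on its own scale) of the 10 retinoic acid genes in the 3 rapamycin libraries (orange, left) and the 3 control libraries (blue, right). Points carry the replicate number and the black bar is the mean ± SD. In *aldh1a2* the rapamycin points sit between 133 and 153 CPM, above all control points at 60.4 to 89.3 CPM, while those of *cyp26b1* overlap.

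The gene for the synthesis of retinoic acid, *aldh1a2* (ENSDARG00000053493), rose 1.91-fold. It was measured at 153, 133 and 148 CPM in the rapamycin libraries and at 60.4, 89.3 and 78.2 CPM in the control libraries. The groups did not overlap, and the gap was widest for control replicate 1, the lowest of the 6. The means were 145 ± 10.5 CPM with rapamycin and 76.0 ± 14.6 CPM in the control (SD, n = 3 each), a log2 fold change of 0.93 (standard error, SE, 0.19, 95% interval 0.51 to 1.35, adjusted p = 0.0262). It ranked 529 of the 19778 tested genes by p. The call held without control replicate 1 (adjusted p = 0.00226) and without control replicate 3 (0.0463). It was lost without control replicate 2 (0.0712) and without rapamycin replicates 4 (0.140), 5 (0.108) or 6 (0.129), with a log2 fold change of 0.78 to 1.06 throughout.

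In bulk fins a change in the number of cells that express a gene and a change in RNA per cell cannot be told apart. The sums of the marker lists for epidermis (42271 to 49916 CPM in rapamycin and 34573 to 47504 CPM in control libraries) and for fin fold mesenchyme (59050 to 61660 CPM in rapamycin and 47292 to 107896 CPM in control libraries) overlapped between the groups. The epidermal sum was mostly *krt4* and the mesenchymal sum mostly *and1* and *and2*, so these sums say little of the other markers. The median log2 fold change of the epidermal markers was 0.28, equal to 2 decimals to that of the retinoic acid genes. Of the 8 epidermal markers 1 rose, *cdh1*, the gene of E-cadherin, and of the 10 mesenchymal ones 0 passed the test by edgeR (2 higher and 3 lower at an unadjusted p under 0.05, and 2 called by DESeq2 and 1 by limma-voom). Red blood cell markers summed to 21.2 to 36.8 CPM in rapamycin and 84.7 to 105 CPM in control libraries, and 2 of 3 fell. These 3 were the IDs found for the 6 symbols of that list. Skeletal muscle markers summed to 261 to 348 CPM in rapamycin and 401 to 420 CPM in control libraries, with 0 of 10 past the test by edgeR (1 higher and 5 lower at an unadjusted p under 0.05, and 3 called lower by DESeq2 and 1 by limma-voom). Macrophage markers summed to 186 to 242 CPM in rapamycin and 241 to 434 CPM in control libraries, and 1 of 13 rose and 2 fell. Pigment cell (median log2 fold change 0.49, 8 tested) and notochord and spinal cord (-0.11, 8 tested) markers held 0 genes past the test by edgeR. So did neutrophil (-0.28, 2 tested) and endothelium (-0.15, 5 tested) markers. The 2 neutrophil genes were the IDs found for the 5 symbols of that list. Of all tested genes 1.97% rose and 3.27% fell, and 10.1% were higher and 13.3% lower at an unadjusted p under 0.05. DESeq2 called 5.06% higher and 7.79% lower, and limma-voom 2.86% and 3.42%. The part of these cell types in the results was not tested.

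The other retinal dehydrogenases in the table were low and did not pass the test. The expression of *aldh1a3*, which also makes retinoic acid, was 1.46, 2.14 and 1.54 CPM with rapamycin and 1.25, 1.37 and 0.702 CPM in the control, a log2 fold change of 0.62 (adjusted p = 0.413). That of *aldh8a1*, which acts on 9-cis-retinal in mammals, was 0.920, 1.38 and 0.721 CPM with rapamycin and 1.81, 1.39 and 1.52 CPM in the control, a log2 fold change of -0.64 (adjusted p = 0.405). A floor of 3 counts stands for 0.0489 to 0.0679 CPM in these libraries.

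Of the 3 genes for the breakdown of retinoic acid, *cyp26c1* was the one that rose. The gene *cyp26c1* (ENSDARG00000056029) was measured at 37.6, 43.0 and 45.3 CPM with rapamycin and at 25.2, 24.0 and 18.7 CPM in the control. All rapamycin libraries lay above all control libraries, and control replicate 3 was the lowest. The means were 42.0 ± 3.94 CPM with rapamycin and 22.7 ± 3.45 CPM in the control (SD, n = 3 each), 1.85-fold, with a log2 fold change of 0.89 (SE 0.19, 95% interval 0.46 to 1.31, adjusted p = 0.0309). The call held without control replicate 1 (adjusted p = 0.00289) and was lost without control replicate 2 (0.111), control replicate 3 (0.0582) or rapamycin replicates 4 (0.112), 5 (0.157) or 6 (0.155). It was also lost when libraries were scaled by their size alone (0.0620).

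The gene *cyp26b1* (ENSDARG00000077121), which codes for a second enzyme of the same reaction, was measured at 63.4, 56.1 and 49.9 CPM with rapamycin and at 56.6, 39.3 and 59.6 CPM in the control. The groups overlapped, and control replicate 2 was the lowest library. The means were 56.4 ± 6.77 CPM with rapamycin and 51.8 ± 10.9 CPM in the control (SD, n = 3 each). The log2 fold change was 0.12 (SE 0.20, 95% interval -0.33 to 0.58, adjusted p = 0.749), and it was -0.04 without control replicate 2. The 95% intervals of *cyp26b1* and *cyp26c1* overlapped.

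The third member of the family, *cyp26a1* (ENSDARG00000033999), was hardly detected. It had 12, 23 and 33 counts with rapamycin and 16, 8 and 12 counts in the control, which is 0.225 to 0.626 CPM with rapamycin and 0.152 to 0.272 CPM in the control. Rapamycin replicate 4 lay below control replicates 1 and 3, so the groups overlapped. The sum was 68 counts with rapamycin (exact Poisson 95% interval 52.8 to 86.2) and 36 counts in the control (25.2 to 49.8), where the intervals cover counting error only. The log2 fold change of 0.89 equalled that of *cyp26c1* to 2 decimals, but its interval ran from -1.03 to 2.82 (adjusted p = 0.565), so neither a rise nor a fall within that range could be told from no change.

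**Figure D2:**
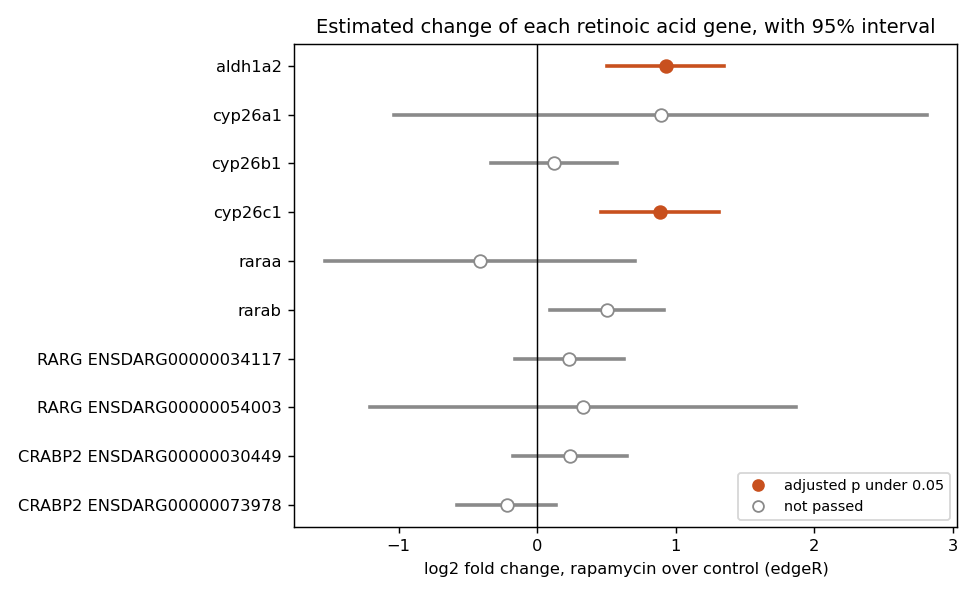
Log2 fold change of rapamycin over control (horizontal axis) of each retinoic acid gene, with its 95% interval, derived from the edgeR test, as a line. Filled orange points are past an adjusted p of 0.05 (*aldh1a2* at 0.93 and *cyp26c1* at 0.89), open points are not, and the widest interval, -1.03 to 2.82, is that of *cyp26a1*.

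The RNA of the genes for synthesis and breakdown was set side by side as the log2 ratio of the CPM of 2 genes within each library. This ratio does not depend on the scaling of the libraries. Neither enzyme activity nor retinoic acid was measured. The ratio of *aldh1a2* to *cyp26b1* was 1.27, 1.25 and 1.57 with rapamycin and 0.094, 1.18 and 0.39 in the control. The groups did not overlap, although control replicate 2 lay close to rapamycin replicate 5, and the means were 1.36 ± 0.18 with rapamycin and 0.56 ± 0.56 in the control (SD, n = 3 each). The difference was 0.81 (exact two-sided permutation p = 0.1). With 3 libraries against 3 the smallest p that this test can give is 0.1, so none of the ratios could pass a threshold of 0.05. A ratio restates the changes of its 2 genes, here log2 fold changes of 0.93 for *aldh1a2* and 0.12 for *cyp26b1*, and is not a separate result.

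The ratio of *aldh1a2* to *cyp26c1*, the synthetic and the degrading enzyme that both rose, was 1.79 ± 0.21 with rapamycin and 1.74 ± 0.42 in the control (SD, n = 3 each). The groups overlapped and the difference was 0.05 (exact two-sided permutation p = 0.9). The ratio of *cyp26c1* to *cyp26b1* was -0.42 ± 0.31 with rapamycin and -1.18 ± 0.48 in the control (SD, n = 3 each), a difference of 0.76 with overlapping groups (exact two-sided permutation p = 0.2). Of the 5 ratios computed between the genes described here, 2 pair genes that were each separated between the groups in opposite directions, so that their ratio could not overlap. All are ratios of counts that were not divided by gene length, so they compare libraries and not the amounts of the 2 enzymes.

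The retinoic acid receptors did not pass the test. The gene *rarab* (ENSDARG00000034893), which codes for a receptor of the alpha type, came closest. It was measured at 22.1, 21.3 and 22.1 CPM with rapamycin and at 17.4, 14.3 and 14.4 CPM in the control, with no overlap and little spread in the rapamycin libraries. The means were 21.8 ± 0.487 CPM with rapamycin and 15.4 ± 1.74 CPM in the control (SD, n = 3 each), and the log2 fold change was 0.51 (SE 0.18, 95% interval 0.09 to 0.92). The unadjusted p was 0.0212 and the adjusted p 0.136. Without control replicate 1, the highest control library for this gene, it passed the test (adjusted p = 0.0162), and its adjusted p was 0.101 to 0.357 under all other settings tried.

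The other alpha receptor, *raraa* (ENSDARG00000056783), was measured at 0.976, 0.626 and 0.759 CPM with rapamycin and at 1.35, 0.912 and 0.883 CPM in the control. Rapamycin replicate 4 lay above control replicates 2 and 3, so the groups overlapped. The log2 fold change was -0.41 with a 95% interval of -1.53 to 0.70 (adjusted p = 0.650). The sums behind it were 126 counts with rapamycin and 170 in the control, and the interval includes 0.

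Neither of the gamma receptors passed the test, and control libraries of both reached into the range of the rapamycin libraries or past it. The RARG gene ENSDARG00000034117 was measured at 271, 261 and 246 CPM with rapamycin and at 195, 208 and 259 CPM in the control. Control replicate 3 lay within the range of the rapamycin libraries, whereas the other control libraries lay below it. The means were 259 ± 12.6 CPM with rapamycin and 221 ± 34.3 CPM in the control (SD, n = 3 each), a log2 fold change of 0.23 (95% interval -0.16 to 0.63, adjusted p = 0.455).

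The second RARG gene, ENSDARG00000054003, had 52, 50 and 51 counts with rapamycin and 80, 41 and 8 counts in the control. In CPM the rapamycin libraries stood at 0.976, 0.921 and 0.968, and the control libraries at 1.303, 0.779 and 0.181. The control libraries lay on both sides of the rapamycin libraries. Its log2 fold change was 0.33 (95% interval -1.21 to 1.87, adjusted p = 0.802), and it was -0.12 without control replicate 3. How reads that match both RARG copies were counted is not given, so their split is uncertain, as it is for the CRABP2 copies and the other genes named here by a shared symbol and an ID.

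The carriers of the CRABP2 type did not pass the test, and their values stood on opposite sides of 0. The CRABP2 gene ENSDARG00000030449 was measured at 31.4, 31.9 and 36.0 CPM with rapamycin and at 30.5, 23.7 and 29.9 CPM in the control. The rapamycin libraries all lay above the control libraries, with control replicate 1 close below rapamycin replicate 4. Its log2 fold change was 0.24 (95% interval -0.17 to 0.65, adjusted p = 0.463).

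The CRABP2 gene ENSDARG00000073978 was measured at 568, 571 and 579 CPM with rapamycin and at 662, 629.8 and 707 CPM in the control. All rapamycin libraries lay below all control libraries, and they spread less than those of any other retinoic acid gene, with a coefficient of variation of 1.02%. The means were 572 ± 5.84 CPM with rapamycin and 666 ± 38.6 CPM in the control (SD, n = 3 each), a log2 fold change of -0.22 (95% interval -0.58 to 0.14, adjusted p = 0.444). Within each library, the log2 ratio of ENSDARG00000030449 to ENSDARG00000073978 was -4.12 ± 0.10 with rapamycin and -4.58 ± 0.15 in the control (SD, n = 3 each). Since these genes were separated in opposite directions, their ratio had to be as well, and it differed by 0.46 (exact two-sided permutation p = 0.1, the smallest the test can give).

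Replicates of the retinoic acid genes were tighter with rapamycin than in the control, as were those of the table as a whole. For the 7 of the 10 genes with a mean log2 CPM of at least 3, the coefficient of variation was 1.02 to 12.0% with rapamycin (median 7.26%) and 5.79 to 21.1% in the control (median 15.2%). Over all 10110 genes of that level the medians were 8.83% with rapamycin and 22.6% in the control.

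The genes whose pattern over the 6 libraries was most like that of *aldh1a2* were *hsp90ab1* (Pearson r of log2 CPM 0.997), *s100z* (0.992) and the HRAS gene ENSDARG00000005651 (0.991). They were ranked among 9254 genes that have a symbol other than a clone name and reach a mean log2 CPM of 3, of which 72 had an r of 0.95 or more. The correlations describe 6 libraries that share their groups and their sequencing, and carry no test.

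The other genes of retinoid handling and response were read from 6 lists of 101 gene IDs, 82 of them tested, with a gene that stands in 2 lists counted once. Of these 82, 1 rose, 5 fell and 76 did not pass, with a median log2 fold change of -0.05, beside 1.97% of all tested genes that rose and 3.27% that fell. The values lay on either side of 0 in equal number, 41 above and 41 below. The lists differed in their medians, from -0.59 for the visual cycle to 0.37 for the cofactors of the receptors.

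**Figure D3:**
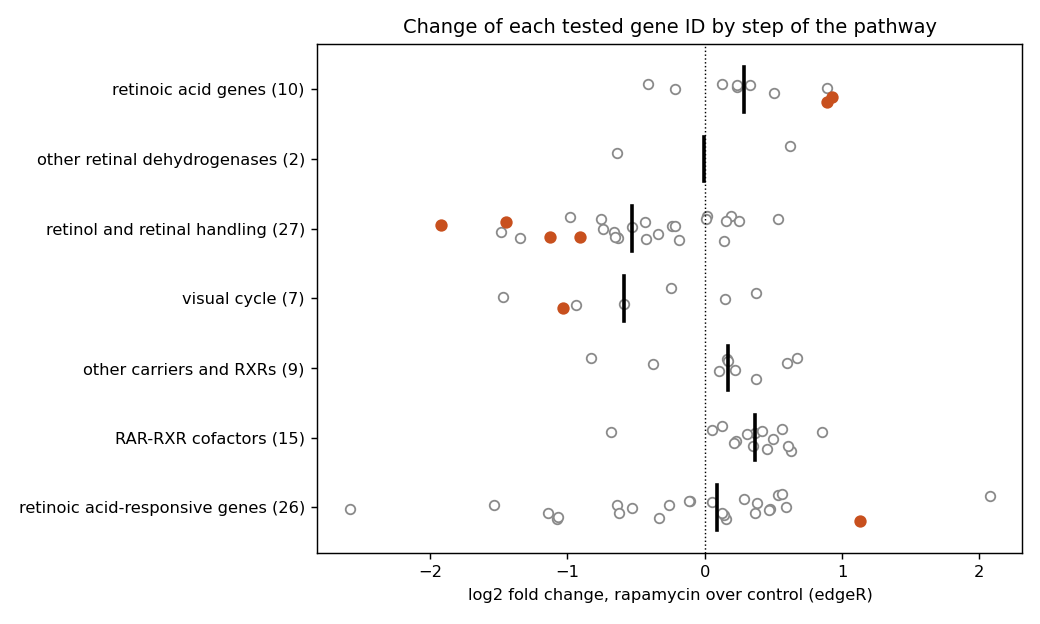
Log2 fold change of rapamycin over control (horizontal axis) of each tested gene ID, in rows by step of the pathway with the number tested in brackets. Filled orange points passed an adjusted p of 0.05, open points did not, and the black bar is the median of the row, which is 0.28 for the retinoic acid genes and -0.53 for retinol and retinal handling.

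Genes that take up, bind, store and convert retinol and retinal, the steps before *aldh1a2*, contained 4 of the 5 genes that fell. Of 27 tested IDs in this list 4 fell, 0 rose and 23 did not pass. At an unadjusted p under 0.05 from edgeR 11 were lower and 0 higher (13.3% and 10.1% of all genes). DESeq2 called 6 lower and 0 higher (7.79% and 5.06% of all genes), and limma-voom 5 lower and 0 higher (3.42% and 2.86%). Of the 27 values, 20 lay below 0 (9876 of all 19778 tested genes), and the median log2 fold change was -0.53. In 9 of the 27, all rapamycin libraries lay below all control libraries (15.9% over all tested genes), and in 0 above. For comparison, 3.27% of all tested genes fell.

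The gene of the list with the highest CPM, not divided by gene length, was *rbp4*, which codes for the protein that carries retinol in the blood. It was measured at 658, 879 and 928 CPM with rapamycin and at 1589.8, 1597 and 1438 CPM in the control, so that no rapamycin library came near a control library. The means were 821 ± 144 CPM with rapamycin and 1542 ± 89.9 CPM in the control (SD, n = 3 each). It fell by 46.7%, a log2 fold change of -0.91 (SE 0.19, adjusted p = 0.0299). Of the 5 markers of the liver, a known source of this protein, 3 averaged under 1 CPM, and the list summed to 7.93 to 11.8 CPM with rapamycin and 5.86 to 22.0 CPM in the control. Within each library the log2 ratio of *aldh1a2* to *rbp4* was -2.49 ± 0.34 with rapamycin and -4.36 ± 0.31 in the control (SD, n = 3 each), a difference of 1.87 between genes that each separated the groups in opposite directions (exact two-sided permutation p = 0.1, the smallest the test can give).

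The gene RDH11 (ENSDARG00000018069), named for an enzyme that interconverts retinal and retinol, had the largest fall of the 5. It was measured at 3.53, 4.42 and 3.57 CPM with rapamycin and at 10.4, 19.2 and 14.0 CPM in the control, a log2 fold change of -1.92 (SE 0.28, adjusted p = 0.00916). The gene *bco1*, whose enzyme cleaves beta-carotene to retinal, was measured at 11.2, 13.1 and 13.2 CPM with rapamycin and at 22.6, 27.6 and 31.6 CPM in the control. Its log2 fold change was -1.13 (SE 0.20, adjusted p = 0.0171). In both genes the lowest control library was control replicate 1, and it was still above every rapamycin library.

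The gene *rbp5*, of the cellular retinol-binding proteins, was measured at 2.23, 4.09 and 2.68 CPM with rapamycin and at 7.75, 7.98 and 8.85 CPM in the control. It fell, with a log2 fold change of -1.45 (SE 0.30, adjusted p = 0.0289) and no overlap. The gene LRAT (ENSDARG00000037278), named for the enzyme that joins retinol to a fatty acid for storage, was measured at 8.56, 5.55 and 9.24 CPM with rapamycin and at 14.1, 15.4 and 16.6 CPM in the control. It just missed the threshold, with a log2 fold change of -0.98 (SE 0.25, adjusted p = 0.0528), and was called lower by DESeq2 and limma-voom.

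The other genes of high CPM in the list gave values below 0 that did not pass. For *lratb.1*, a relative of LRAT, the libraries stood at 78.8, 85.2 and 90.9 CPM with rapamycin and at 86.4, 144 and 168 CPM in the control (log2 fold change -0.64, adjusted p = 0.147). Control replicate 1 lay within the rapamycin libraries, and the other control libraries above them. The alcohol dehydrogenase *adh5* was measured at 63.6, 62.3 and 63.1 CPM with rapamycin and at 65.1, 97.5 and 92.0 CPM in the control (log2 fold change -0.43, adjusted p = 0.205). The retinol uptake gene *stra6* had 0 counts in every library, which allows a level of up to 0.0489 to 0.0679 CPM per library. The gene *stra6l* of the same list was detected, at 0.188, 0.313 and 0.740 CPM with rapamycin and 0.733, 1.52 and 1.22 CPM in the control. Its groups overlapped (log2 fold change -1.48, edgeR adjusted p = 0.226).

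**Figure D4:**
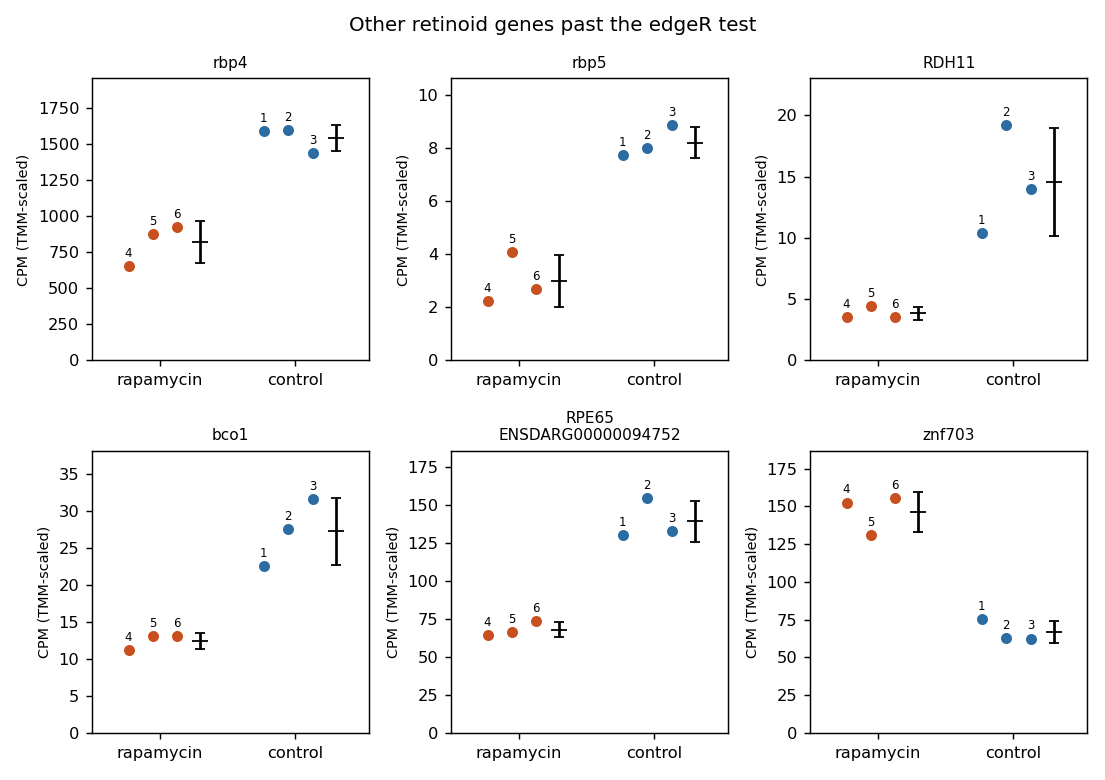
CPM (vertical axis, scaled by TMM, each panel from 0 on its own scale) of the 6 other retinoid genes past the test, in the 3 rapamycin libraries (orange, left) and the 3 control libraries (blue, right), with replicate numbers at the points and the mean ± SD as a black bar. The rapamycin points of *znf703* sit at 131 to 156 CPM, above the control points at 62.5 to 75.4 CPM, and those of the other 5 genes below their control points.

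Among the genes of the visual cycle, which regenerates the chromophore of the eye, 1 of 7 tested IDs fell, 0 rose and 6 did not pass. Of all tested genes 3.27% fell and 1.97% rose. At an unadjusted p under 0.05 edgeR put 2 lower and 0 higher (13.3% and 10.1% of all genes). DESeq2 called 2 lower and 0 higher (7.79% and 5.06%), and limma-voom 1 lower and 0 higher (3.42% and 2.86%). The RPE65 gene ENSDARG00000094752, named for the isomerase of that cycle, was measured at 64.3, 66.5 and 73.5 CPM with rapamycin and at 131, 155 and 133 CPM in the control. It fell with a log2 fold change of -1.03 (SE 0.16, adjusted p = 0.0112). A second RPE65 gene, ENSDARG00000054420, was measured at 10.4, 10.9 and 11.7 CPM with rapamycin and at 7.43, 6.18 and 16.2 CPM in the control (log2 fold change 0.15, adjusted p = 0.828). The gene *rgrb*, an opsin relative, stood at 0.958, 1.38 and 1.37 CPM with rapamycin and at 2.05, 3.31 and 4.94 CPM in the control (log2 fold change -1.47, adjusted p = 0.0708), and DESeq2 called it lower. The retina and lens markers summed to 0.190 to 0.338 CPM with rapamycin and 0.277 to 0.988 CPM in the control, and each of the 9 IDs averaged under 1 CPM.

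The retinoid X receptors and the remaining carriers held no gene past the test, with 0 of 9 called by edgeR, DESeq2 or limma-voom. Of all tested genes edgeR called 5.24% in either direction, DESeq2 12.8% and limma-voom 6.28%. At an unadjusted p under 0.05 from edgeR, 0 were higher and 1 lower (10.1% and 13.3% of all genes). The median log2 fold change of the 9 was 0.17. The carrier CRABP1 (ENSDARG00000035904), which binds retinoic acid in the cytoplasm, was measured at 141, 153 and 141 CPM with rapamycin and at 137, 221 and 206 CPM in the control (log2 fold change -0.38, adjusted p = 0.302). Of the receptors, RXRB stood at 12.3, 12.9 and 13.2 CPM with rapamycin and at 11.3, 4.83 and 7.92 CPM in the control (log2 fold change 0.67, unadjusted p = 0.0529, adjusted p = 0.220). The gene *rxrga* stood at 2.01, 1.88 and 2.52 CPM with rapamycin and at 2.64, 4.75 and 3.98 CPM in the control (log2 fold change -0.83, unadjusted p = 0.0369, adjusted p = 0.183). The groups did not overlap in either receptor, and control replicate 1 was in both the control library nearest to the rapamycin libraries. Without control replicate 1 edgeR called RXRB higher (15.5% of all genes), and *rxrga* and the CRABP1 gene lower (15.6%). The RXRA gene ENSDARG00000057737 and PPARD gene ENSDARG00000009473, a nuclear receptor that can bind retinoic acid in mammals, had log2 fold changes of 0.22 (adjusted p = 0.647) and 0.16 (adjusted p = 0.623).

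The coactivators and corepressors that work with the receptors had values above 0 in 14 of 15 tested genes, with a median of 0.37. Over all tested genes 9902 of 19778 values lay above 0. All rapamycin libraries lay above all control libraries in 2 of the 15 and below in 1 (14.8% and 15.9% of all genes). By edgeR 0 of the 15 passed the test. At an unadjusted p under 0.05 from edgeR, 1 was higher and 1 lower (10.1% and 13.3% of all genes). By limma-voom 0 passed, and by DESeq2 1, *hdac3*, which was lower (7.79% of all genes lower). The exception in direction was *hdac3*, a histone deacetylase of the corepressor complex. It was measured at 38.2, 37.7 and 40.4 CPM with rapamycin and at 51.4, 66.7 and 68.4 CPM in the control, with no overlap and a log2 fold change of -0.68 (SE 0.17, adjusted p = 0.0554). By edgeR *hdac3* was called lower with upper quartile scaling (3.73% of all genes lower) and library size only (3.68%). It was also called lower with at least 10 counts in every library (4.64%). Without control replicate 1 it was called lower too (15.6% of all genes). There *ncoa1*, *ncoa3*, *ncor1*, *tbl1xr1b* and genes of NRIP1, EP300 and CREBBP were called higher (15.5%). The corepressor *ncor1* had a log2 fold change of 0.23 (adjusted p = 0.630). The coactivator *ncoa3* had one of 0.63 (adjusted p = 0.366) and *tbl1xr1b*, of the corepressor complex, one of 0.56 (adjusted p = 0.218). In *ncoa3* control replicate 1 (46.4 CPM) lay among the rapamycin libraries (36.9 to 47.3 CPM), while control replicates 2 and 3 stood at 18.1 and 14.3 CPM. In *ncor1* control replicate 1 (53.7 CPM) lay above the rapamycin libraries (41.4 to 46.3 CPM), with control replicates 2 and 3 at 33.5 and 25.6 CPM. In *tbl1xr1b* control replicate 1 (23.5 CPM) lay among them (22.1 to 28.9 CPM), with control replicates 2 and 3 at 15.0 and 12.8 CPM.

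Of the genes known to respond to retinoic acid in embryos, 1 of 26 tested IDs rose, 0 fell and 25 did not pass, beside 1.97% of all tested genes that rose and 3.27% that fell. At an unadjusted p under 0.05, edgeR put 4 higher and 3 lower (10.1% and 13.3% of all genes). DESeq2 called 2 higher and 2 lower (5.06% and 7.79%), and limma-voom 1 higher and 0 lower (2.86% and 3.42%). The gene that rose was *znf703*, a zinc finger protein that responds to retinoic acid in the hindbrain of zebrafish embryos. It was measured at 153, 131 and 156 CPM with rapamycin and at 75.4, 62.8 and 62.5 CPM in the control. The means were 146 ± 13.2 CPM with rapamycin and 66.9 ± 7.37 CPM in the control (SD, n = 3 each), 2.19-fold, with a log2 fold change of 1.13 (SE 0.17, adjusted p = 0.00951). The list as a whole did not lean one way, with 14 values above 0, 12 below and a median of 0.09.

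The other genes of high CPM in that list were MEIS1 (ENSDARG00000012078), a homeobox gene, and the TGM2 gene ENSDARG00000074094, named for a transglutaminase. MEIS1 was measured at 132, 156 and 135 CPM with rapamycin and at 114, 99.9 and 112 CPM in the control (log2 fold change 0.38, adjusted p = 0.197). TGM2 was measured at 121, 111 and 108 CPM with rapamycin and at 80.9, 79.4 and 69.9 CPM in the control (log2 fold change 0.56, adjusted p = 0.0709). Neither overlapped between the groups, and TGM2 was called higher by DESeq2. On the other side, the NR2F1 gene ENSDARG00000052695, a nuclear receptor of the COUP-TF type chosen after its values were seen, stood at 13.4, 6.13 and 7.70 CPM with rapamycin and at 43.3, 21.7 and 13.7 CPM in the control (log2 fold change -1.53, adjusted p = 0.0734). It was called lower by DESeq2, and by edgeR with at least 10 counts in every library and without control replicate 3. It was not called without control replicate 1, where 15.6% of all genes were called lower. Of the related genes in the list, *nr2f5* went the other way with no overlap (log2 fold change 0.53, edgeR adjusted p = 0.156). For *nr2f2* the value was -0.12 (edgeR adjusted p = 0.865). The NR2F1 gene ENSDARG00000017168, at up to 0.417 CPM with rapamycin, was at -2.59 (edgeR adjusted p = 0.188). The gene *meis1a* of the same list went the opposite way to MEIS1. It stood at 3.29, 1.58 and 2.07 CPM with rapamycin and at 5.18, 6.04 and 4.12 CPM in the control, with no overlap (log2 fold change -1.14, edgeR adjusted p = 0.0936). DESeq2 called *meis1a* lower, as did edgeR without control replicate 1.

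The 6 other retinoid genes past the test were called under all 7 other scalings, filters and tools tried, where 4.36% to 12.8% of all genes were called. They were not called without some of the single libraries. Each of the 6 was called without control replicate 1, where 31.1% of all genes were called. Each except *rbp5* (adjusted p = 0.0549) was called without control replicate 3, where 3.94% of all genes were called. None of them was called without control replicate 2 or without any 1 of the rapamycin libraries, where 0.548% to 0.617% of all genes were called. The adjusted p then reached 0.0672 for RDH11, 0.0700 for *znf703*, 0.0886 for the RPE65 gene, 0.110 for *bco1*, 0.145 for *rbp5* and 0.165 for *rbp4*. No sign changed in any of them.

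**Figure D5:**
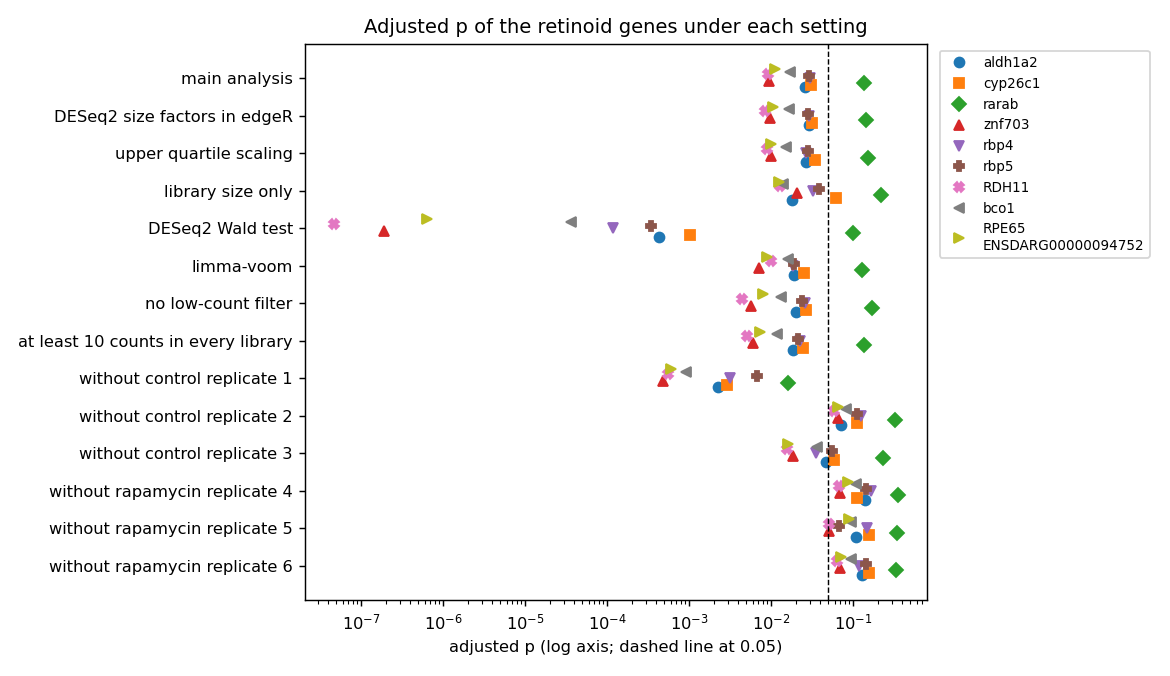
Adjusted p (horizontal log axis, dashed line at 0.05) of *aldh1a2*, *cyp26c1*, *rarab* and the 6 other retinoid genes past the test, under the main analysis and each other setting (rows), with a symbol and colour for each gene. Without control replicate 1 (31.1% of all genes called) all 9 lie left of the line, with *rarab* at 0.0162. Without control replicate 2 or any 1 rapamycin library (0.548% to 0.617% of all genes called) none does.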

How the data were processed

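The authors deposited raw counts per Ensembl gene ID for each library, which are whole numbers and not normalized. Aligner, counter and strand setting were not given in the sources used here. Although every ID is a zebrafish ID, mm10 is the build in the submitters' processing notes, so no coordinates are given. No per-gene transcript length was used, so where genes are ranked or called low by CPM, the order is not corrected for length.

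The test was run in R 4.3.3 by edgeR 4.0.16 (filterByExpr, TMM, robust quasi-likelihood test, no covariate) over 19778 genes, with Benjamini-Hochberg adjustment and a threshold of 0.05, and CPM were scaled by TMM. Other settings were DESeq2 1.42.0, limma-voom (limma 3.58.1), 3 other scalings, 2 other filters, the threshold of the paper and leaving out each library.

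Named are the 10 retinoic acid genes and the called genes of each wider list, or else up to 3 with the smallest p. Also named are up to 3 genes of each list with the highest mean log2 CPM, and the 3 genes most like *aldh1a2*. LRAT, *stra6*, *stra6l*, the NR2F1 genes, *nr2f2*, *nr2f5* and *meis1a* were added after their values were seen. A gene that this rule names is not reported here. Names come from a table with a symbol for 28988 IDs. The genes and lists were chosen with earlier results of these data known. Replicates are the submitters' biological replicates, pools of fins with no batch or date given.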

Additional observations from a re-analysis of the deposited data

How the results depend on the processing

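No paired analysis was possible because the groups share no replicate numbers. The 2 calls among the retinoic acid genes became 1 with library size only (*aldh1a2*), 0 at the threshold of the paper (its fold change of at least 1 in log2, which neither gene reached), and 0 to 3 when single libraries were left out. For the whole table, 390 genes rose by edgeR, 1000 by the DESeq2 Wald test and 773 at the threshold of the paper, and 47 to 3128 with a library left out. There, 647 fell by edgeR, 1539 by DESeq2 and 1102 at the threshold of the paper, and 65 to 3151 with a library left out, where the highest counts were without control replicate 1. For the wider retinoid lists, with 82 IDs tested in the main analysis, 1 gene rose by edgeR and 2 by DESeq2 (1.97% and 5.06% of all genes). There, 5 fell by edgeR and 11 by DESeq2 (3.27% and 7.79% of all genes). At the threshold of the paper 9 fell (5.57% of all genes), and with at least 10 counts in every library 8 (4.64%). With a library left out, 0 to 12 rose and 0 to 17 fell. The cause of these shifts was not tested. Without control replicate 1, 15.5% of all tested genes were called higher and 15.6% lower, the background for the 3 retinoic acid genes and the 12 and 17 wider genes called there.

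Of the single-gene values, 168 kept their side of the threshold, 1 passed it (*rarab* without control replicate 1), 35 lost the call, and 2 that were not called changed sign, *cyp26b1* (-0.041 without control replicate 2, and -0.041 to 0.24 over the single libraries left out) and the RARG gene ENSDARG00000054003 (-0.12 without control replicate 3, and -0.12 to 0.97 over these). The median log2 fold change of all genes lay between -0.03 and 0.03 under the settings. A correction for gene span was not run, since a gene of that symbol was found in RefSeq for 67.5% of the tested genes. Genes under 1 CPM, such as *cyp26a1* and *raraa*, rest on 8 to 83 counts per library and have the widest intervals.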
